A study of Homo sapiens with 24 samples.

Results

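The collagen genes were taken as all protein-coding genes whose symbol has the form COL, number, A, number, after the transcripts in the deposited files had been assigned to genes by their Ensembl identifiers. This rule gave 44 genes with 327 transcripts, of 34834 genes in all, and every member was present in the files. They fell into 11 fibrillar collagens, 9 basement membrane collagens, 8 network-forming collagens, 4 transmembrane collagens and 12 others, which hold the FACITs (collagens that lie on the surface of fibrils) and less studied chains. The minimum of 10 estimated counts in at least 3 libraries was passed by 38 of the 44 genes and by 17453 genes in the whole series. COL5A3, COL6A5, COL6A6, COL10A1, COL17A1 and COL23A1 stayed under it and are described by their levels only.

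RNA was sequenced from SK-MES1, an established human cell line derived from a squamous cell carcinoma of the lung. All cells, untreated ones included, were deprived of serum for 3 h, after which they received 2 ng/ml of the cytokine TGFβ1 or nothing. By the study's methods the stimulation itself was also done in medium depleted of growth factors. RNA was taken at 0, 8, 24 and 48 h in both arms, which gave 8 groups of 3 libraries and 24 libraries in total. The libraries labelled TGFβ at 0 h had no time with the cytokine, so that the arms should differ at 0 h by label only. The p-values of the gene tests rest on the spread of libraries within groups, pooled over all 8 groups of 3 and drawn towards that of other genes. The study calls these libraries biological replicates and the labels only number them.

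Collagens are built from α chains, each encoded by its own gene, that wind into a triple helix, and the partners of a chain decide which collagen is made. Fibrillar collagens such as types I and V form the tensile fibrils of connective tissue, type IV forms the sheet of the basement membrane under epithelia, type VII forms the fibrils that anchor that membrane to the tissue beneath, and type VI forms beaded microfibrils. TGFβ is known as an inducer of collagen genes in fibroblasts and of the mesenchymal programme in carcinoma cells, and these chains are much studied in the matrix of lung tumours.

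The 24 libraries held 46613589 to 77964234 estimated counts, with a median of 54120879. At 0 h no gene differed between the arms by limma voom at an adjusted p below 0.01, which is 0% of the 17453 tested genes, while 800 genes, 1 collagen gene among them, had an unadjusted p below 0.05, and edgeR and DESeq2 called no collagen gene either. SMAD7, SKIL and PMEPA1, textbook TGFβ targets used as a check of the labels, were each called higher in TGFβ-treated cells at 8, 24 and 48 h. Of 10 squamous epithelial markers, KRT5, KRT6A, KRT14 and DSG3 reached at most 0.102 TPM in any library, whereas TP63, PKP1 and EPCAM stood at 7.69 TPM or more in all of them, so that the labelled cell type rested on a part of its markers. The summed TPM of these 10 markers was 104 to 106 in untreated and 159 to 166 in TGFβ-treated cells at 48 h, and the members moved both ways, with KRT17 (log2 3.76) and PKP1 (1.11) called higher and SOX2 (-3.55), TP63 (-0.49), EPCAM (-0.44) and CDH1 (-0.35) lower. That of 8 fibroblast markers was 92.8 to 97.0 and 98.0 to 100.1, with 3 of the 7 tested ones called higher (FAP, PDGFRB and FBLN1, log2 6.58, 2.26 and 0.37) and 4 lower (DCN, LUM, PDGFRA and THY1, log2 -3.30, -1.30, -0.39 and -0.38). PDGFRA averaged 10.66 TPM in untreated and 10.65 TPM in TGFβ-treated cells at 48 h, so that its counts and TPM disagreed. The summed TPM of 3 endothelial markers stayed at or below 4.54 in every library, with both tested ones called higher at 48 h. The leukocyte markers summed to 9.09 to 12.7 at 48 h, most of it CD68, with CD3E at 0 in all libraries. The part of these shifts in the collagen differences was not tested, and in bulk RNA a change in the share of cells that make a transcript and a change per cell cannot be told apart. The file names carried 4 codes of unstated meaning, 1 per arm for 0 and 8 h and 1 per arm for 24 and 48 h, so that code and treatment cannot be told apart at the later times.

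The 6 type IV collagen genes lie in 3 pairs, head to head, in the genome, COL4A1 with COL4A2 on chromosome 13, COL4A3 with COL4A4 on chromosome 2 and COL4A5 with COL4A6 on chromosome X. In RefSeq (GRCh38.p14) their start sites were 127, 419 and 380 bases apart. The windows of 250 bases before to 50 bases after the start are shown for the first and the third pair. These 2 pairs were picked after their opposite directions at 48 h were seen in the comparisons that follow. The members of each of the 3 pairs moved in the same direction at 48 h, and the second pair moved as the first. Capitals mark GGGCGG, the GC box, and CAGAC, a short SMAD binding element, with their reverse complements CCGCCC and GTCTG. COL4A1 is at chr13:110307108-110307407 on the minus strand and COL4A2 at chr13:110307034-110307333 on the plus strand, COL4A5 is at chrX:108439588-108439887 on the plus strand and COL4A6 at chrX:108439409-108439708 on the minus strand.
COL4A1: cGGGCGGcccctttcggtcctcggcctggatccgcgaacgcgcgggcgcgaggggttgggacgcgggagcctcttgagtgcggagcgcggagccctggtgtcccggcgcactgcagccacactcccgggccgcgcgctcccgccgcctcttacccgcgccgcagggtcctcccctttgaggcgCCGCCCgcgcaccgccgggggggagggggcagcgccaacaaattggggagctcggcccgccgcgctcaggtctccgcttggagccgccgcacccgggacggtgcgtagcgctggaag
COL4A2: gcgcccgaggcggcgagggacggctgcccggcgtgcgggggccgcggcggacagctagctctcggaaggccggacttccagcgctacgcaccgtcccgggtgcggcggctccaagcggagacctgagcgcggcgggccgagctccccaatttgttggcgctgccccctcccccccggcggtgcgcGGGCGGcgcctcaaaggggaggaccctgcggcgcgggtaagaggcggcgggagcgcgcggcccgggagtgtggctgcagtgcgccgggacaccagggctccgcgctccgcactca
COL4A5: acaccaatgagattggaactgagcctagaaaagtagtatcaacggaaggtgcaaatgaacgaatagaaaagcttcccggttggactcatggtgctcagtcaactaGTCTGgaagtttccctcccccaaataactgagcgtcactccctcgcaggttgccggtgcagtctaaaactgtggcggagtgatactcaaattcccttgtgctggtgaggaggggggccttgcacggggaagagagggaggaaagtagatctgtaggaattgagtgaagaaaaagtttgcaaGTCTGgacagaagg
COL4A6: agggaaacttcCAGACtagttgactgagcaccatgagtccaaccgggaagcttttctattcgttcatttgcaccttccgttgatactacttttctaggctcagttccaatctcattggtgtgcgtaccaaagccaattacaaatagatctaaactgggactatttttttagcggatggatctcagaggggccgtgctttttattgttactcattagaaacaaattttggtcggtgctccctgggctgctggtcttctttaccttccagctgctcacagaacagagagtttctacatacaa

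The COL4A1 and COL4A2 windows shared 226 bases, and the GC box of COL4A2 was 1 of the 2 of COL4A1, read from the other strand. They consisted of 76.7% and 77.7% G and C, against a median of 58.7% over 35116 RefSeq windows of the same length. The COL4A5 and COL4A6 windows shared 121 bases and 1 CAGAC, had no GC box, and held 49.3% and 43.7% G and C. In the pair not shown, called higher at 48 h, the COL4A3 window held 2 GC boxes and no CAGAC. That of COL4A4 held no GC box and 1 CAGAC. Of the 44 collagen genes 32 had a window, and the first one listed was searched where there were several. CAGAC on either strand occurred in 13 of the 32 (40.6%) and in 45.3% of all windows, and the palindrome GTCTAGAC in 0 of 32 and 0.202% of all windows. GGGCGG occurred in 18 of 32 collagen windows (56.2%) and 45.0% of all windows, and TATAAA in 15.6% and 11.5%. Among the collagen genes called higher with TGFβ at 48 h, 6 of 14 windows held CAGAC (42.9%) and 10 of 14 held GGGCGG (71.4%), and among those called lower, 3 of 4 held CAGAC and 1 of 4 held GGGCGG. These matches describe the letters of the windows and are no evidence of binding.

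Collagen transcripts took up a growing part of the transcriptome of TGFβ-treated cells. The summed TPM of the 44 genes was 1712 ± 163 in untreated cells at 0 h and 1817 ± 98.96 at 48 h (mean ± SD, n = 3), and in the TGFβ arm it started at 1624 ± 243 and reached 2474 ± 94.3 after 8 h, 3385 ± 508 after 24 h and 4401 ± 253 after 48 h. From 8 h on every TGFβ-treated library lay above every untreated one of the same time, for which the smallest p of an exact permutation test of 3 against 3 libraries is 0.1. The library numbered 2 had the lowest sum of its group at 0 and 24 h in both arms, and counts of calls without these 4 libraries are given where they matter. These libraries were thus picked by the collagen values themselves, and a smaller spread or more calls without them follow in part from that choice.

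The fibrillar class made most of this difference, mainly through COL1A1. At 48 h its genes summed to 280, 253 and 261 TPM in the untreated libraries and to 2616, 2610 and 2309 TPM in the TGFβ-treated ones. The median log2 difference of the 10 tested fibrillar genes was 0.06 at that time. COL1A1 alone averaged 157.7 TPM in untreated and 2255 TPM in TGFβ-treated cells. The basement membrane class summed to 259 ± 14.8 TPM and 618 ± 17.3 TPM, and the remaining class of others to 86.4 ± 4.89 and 129 ± 1.99 TPM. The network class did not separate at 48 h, with 1279, 1188 and 1147 TPM in untreated and 1187, 1159 and 1072 TPM in TGFβ-treated cells. Transmembrane collagens summed to 2.53 ± 0.191 and 2.18 ± 0.349 TPM, and had been at 7.57 ± 0.121 and 7.05 ± 0.480 TPM at 0 h.

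**Figure D1:**
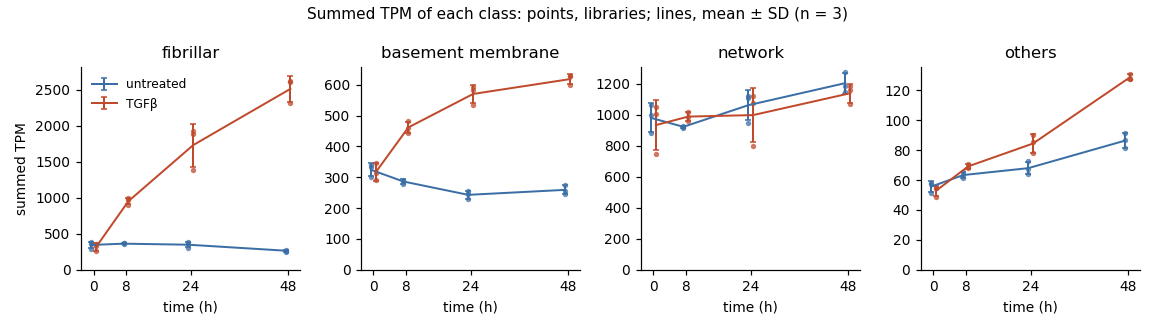
Summed TPM (y axes, linear from 0) of 4 collagen classes against time in hours, with 1 point per library and lines through the mean ± SD of 3 libraries, untreated cells in blue and the TGFβ arm in red. The fibrillar sum of the TGFβ arm rose to 2512 TPM at 48 h while that of untreated cells was 264.5 TPM, of which COL1A1 made 2255 and 157.7 TPM. The network sums overlapped at 48 h.

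Differences of single genes between the arms were tested with limma voom over all 17453 genes, and a gene was called at an adjusted p below 0.01. At 8 h 12 of the 38 tested collagen genes were higher and 2 lower in TGFβ-treated cells, where 9.12% of all tested genes were higher and 7.26% lower. At 24 h 16 were higher and 8 lower, against a background of 15.4% and 13.8%. At 48 h 18 were higher and 7 lower, against 16.1% and 16.4%. The share of higher collagen genes was thus above that of all genes at each time, and the share of lower ones was near it at 8 and 48 h and above it at 24 h. Scaled to the reference genes named below, fewer collagen genes were lower at 24 h, but the share of all genes was not computed under that scaling. By class, the genes called higher and lower at 48 h were 5 and 2 of 10 tested fibrillar, 5 and 2 of 9 basement membrane, 2 and 1 of 5 network, 0 and 0 of 2 transmembrane and 6 and 2 of 12 other collagens. The F-test over the 3 times called 26 of 38 collagen genes and 42.5% of all genes. The median log2 difference of the tested collagen genes went from 0.10 at 8 h over 0.32 at 24 h to 0.39 at 48 h, and that of all tested genes was -0.02, -0.02 and -0.01.

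COL1A2, COL9A1 and COL20A1, all called higher at 48 h, passed the count minimum through TGFβ-treated libraries only, and COL2A1, called lower, through untreated libraries but for 2 of the other arm, so that these 4 lend the counts no support. When libraries were scaled to the summed counts of the 4 genes that served as qRT-PCR references, the median of all genes shifted to 0.43 at 24 h and 0.34 at 48 h, and the collagen calls became 12 higher and 0 lower at 8 h, 23 and 2 at 24 h and 20 and 3 at 48 h. The share of all genes called was not computed under that scaling or any other alternative, so that these counts have no background beside them. With library totals 9 were higher and 4 lower at 8 h. The count at 8 h rested in part on single libraries, since without the untreated 8 h library 1, or without the TGFβ-treated 8 h library 2, it was 9 in place of 14. Without the 4 low libraries numbered 2 the calls were 15, 22 and 28 at 8, 24 and 48 h, which lends no support, since those libraries were picked by their collagen sums.

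Across the 3 times, 10 genes were called higher at each, namely COL1A1, COL4A1, COL4A2, COL4A4, COL5A1, COL7A1, COL8A2, COL16A1, COL22A1 and COL27A1. A further 5 were called higher at 24 and 48 h but not at 8 h, which were COL1A2, COL4A3, COL6A3, COL12A1 and COL20A1. Called lower at 24 and 48 h were COL2A1, COL4A5, COL4A6, COL21A1 and COL28A1, of which COL4A5 and COL4A6 turned positive at 24 h when scaled to the reference genes. COL24A1 was lower at 8 and 24 h and higher at 48 h, and scaled to the reference genes it was not called at 8 h and turned positive at 24 h. Another 10 genes were called at none of the 3 times, and the remaining 7 had other patterns.

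**Figure D2:**
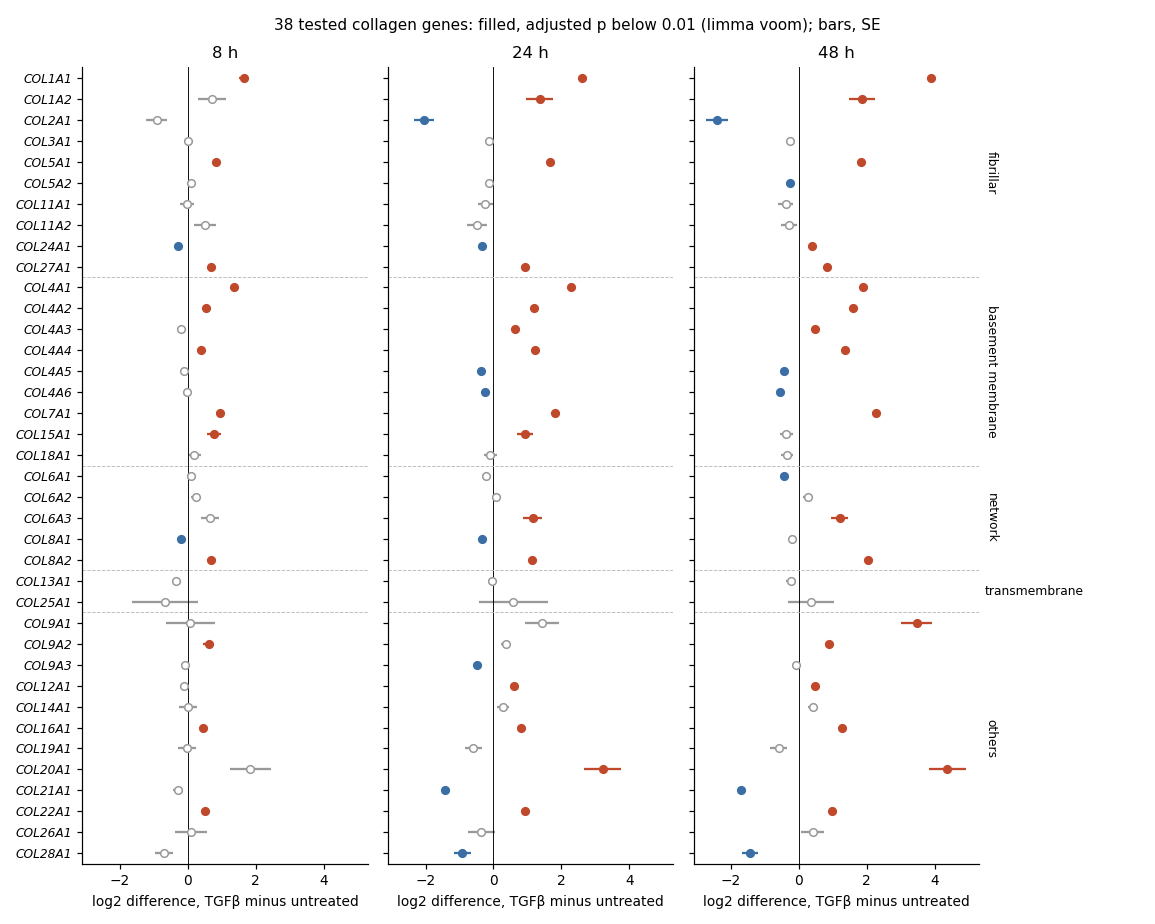
Log2 difference between TGFβ-treated and untreated cells (x axes) at 8, 24 and 48 h for the 38 tested collagen genes, ordered by class, with bars for the SE and filled points for an adjusted p below 0.01 in limma voom (red higher, blue lower). COL1A1 moved from 1.64 at 8 h to 3.89 at 48 h, and COL20A1, with the widest bar among the filled points at 48 h, rests on few counts.

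Among fibrillar collagens, COL1A1, which encodes the α1 chain of type I collagen, changed most. It lies on chromosome 17 from 50184101 to 50201632 (GRCh38, minus strand). The untreated libraries started at 288, 213 and 261 TPM, held 271, 270.0 and 264 TPM after 8 h and 291, 222 and 269.5 TPM after 24 h, and ended at 166, 152 and 156 TPM. Those of the TGFβ arm started at 250.1, 179 and 264 TPM, held 841, 828 and 768 TPM after 8 h and 1683, 1215 and 1720 TPM after 24 h, and ended at 2359, 2347 and 2059 TPM. The arms overlapped at 0 h and were far apart from 8 h on, and the treated libraries kept climbing while the untreated ones fell at 48 h. The arms differed 3.12-fold after 8 h, 6.15-fold after 24 h and 14.8-fold after 48 h (log2 3.89, SE 0.13, adjusted p = 4.58e-16, limma voom). COL1A1 made up 14.8% of all collagen TPM in untreated cells at 0 h and 8.68% at 48 h, and 51.2% in TGFβ-treated cells at 48 h (SD 0.96, n = 3).

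COL1A2, which encodes the partner α2 chain of type I collagen, was almost absent. It lay between 0.00915 and 0.221 TPM in all 24 libraries, and its counts at 48 h summed to 13 over the 3 untreated and 42 over the 3 TGFβ-treated libraries. The ratio per library total was 3.66 (95% exact interval 1.93 to 7.43, counting error only), for a gene that passed the count minimum in 6 TGFβ-treated and 0 untreated libraries. Only 14.3% of its TPM came from the protein-coding transcript. COL3A1, the single chain of type III collagen, rose over time in both arms, from 2.31 to 3.00 TPM at 0 h to 6.32 to 9.34 TPM at 48 h, and was called at none of the 3 times between the arms, except higher at 24 h when scaled to the reference genes (log2 0.32, adjusted p = 0.00459).

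COL5A1, the α1 chain of type V collagen, which nucleates type I fibrils, was the next most abundant fibrillar gene. Its TPM at 48 h was 76.7, 65.8 and 71.3 in untreated and 214, 218 and 209 in TGFβ-treated libraries, with no overlap. The difference grew from 1.76-fold at 8 h over 3.14-fold at 24 h to 3.53-fold at 48 h (log2 1.82, SE 0.09, adjusted p = 2.76e-13, limma voom). Its partner COL5A2 did not rise with it, with 7.36, 7.0 and 7.27 TPM in untreated and 5.50, 5.71 and 5.62 TPM in TGFβ-treated cells at 48 h. This was 1.21-fold lower (log2 -0.27, SE 0.06, adjusted p = 0.000664), but turned to log2 0.08 when scaled to the reference genes (adjusted p = 0.525). COL5A3 never exceeded 0.0524 TPM and was not tested.

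COL27A1, a fibrillar collagen of cartilage, was measured at 12.2, 13.01 and 10.4 TPM in untreated and 21.3, 22.9 and 19.1 TPM in TGFβ-treated cells at 48 h. Its difference was already 1.61-fold at 8 h and stayed near that size, 1.89-fold at 24 h and 1.76-fold at 48 h (adjusted p = 4.05e-08, limma voom). COL24A1 rose in both arms from 1.49 to 1.90 TPM at 0 h to 4.10 to 5.56 TPM at 48 h, with a difference that changed sign (log2 -0.30 at 8 h, -0.35 at 24 h and 0.38 at 48 h, adjusted p = 0.00353, 0.000979 and 0.000126). Scaled to the reference genes COL24A1 stood at log2 -0.25 at 8 h (adjusted p = 0.167) and 0.09 at 24 h (adjusted p = 0.529). COL2A1, the cartilage collagen, was low, at most 0.299 TPM in any library, and its counts at 48 h summed to 117 in untreated and 17 in TGFβ-treated libraries. Its ratio was 0.164 (95% exact interval 0.0927 to 0.275, counting error only), although its TPM overlapped between the arms. COL11A1 and COL11A2 were called at none of the times, and only 3.63% of COL11A1 TPM came from protein-coding transcripts.

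**Figure D3:**
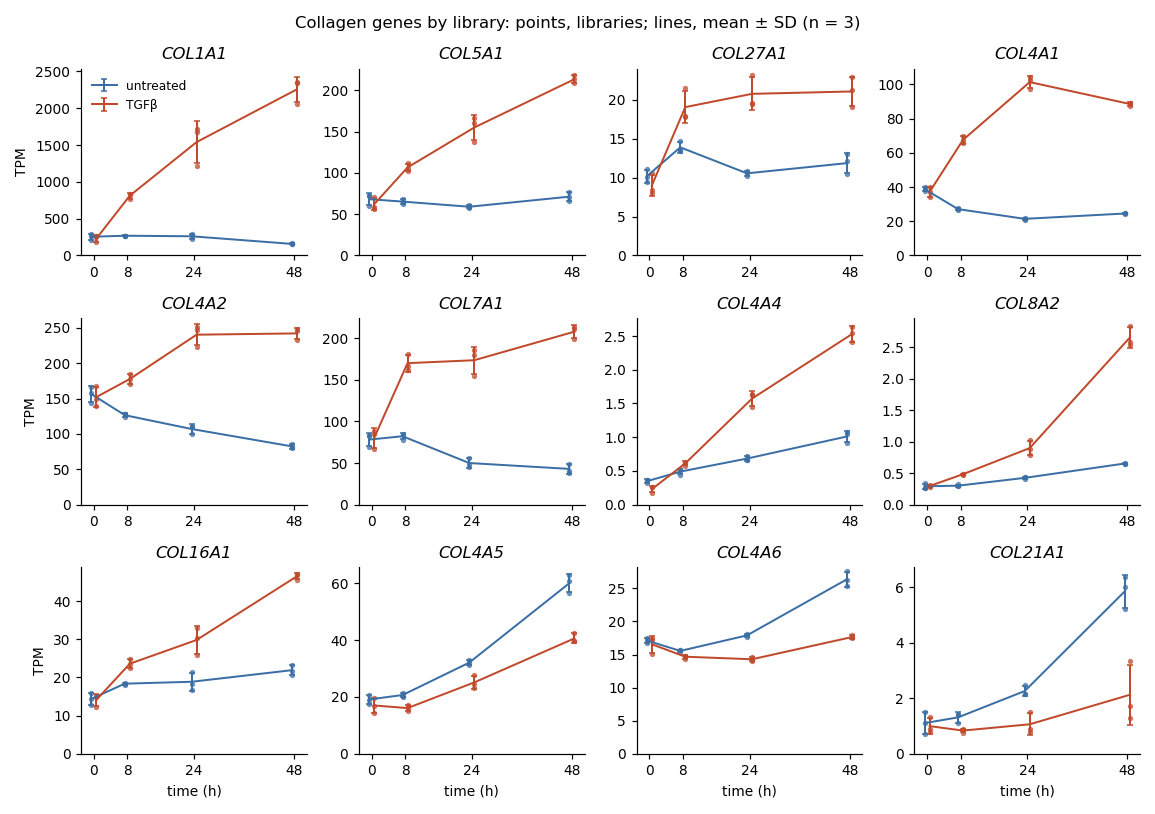
TPM (y axes, linear from 0, a scale for each gene) of 12 collagen genes against time in hours, with 1 point per library and lines through the mean ± SD of 3 libraries, untreated cells in blue and the TGFβ arm in red. The arms overlap at 0 h in all panels but COL4A4, COL1A1 reaches 2255 TPM on average with TGFβ at 48 h, and COL4A5, COL4A6 and COL21A1 have the untreated line above the treated one at 48 h (scaled to the reference genes, COL4A5 and COL4A6 were not called at 48 h and turned positive at 24 h).

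In the basement membrane class the 6 type IV genes split by pair. COL4A1, which encodes the α1 chain of the common α1α1α2 network, was at 25.0, 24.6 and 24.1 TPM in untreated and 89.2, 89.2 and 87.2 TPM in TGFβ-treated cells at 48 h. It peaked at 24 h, where the treated libraries held 97.1, 104 and 103 TPM and the untreated ones 21.9, 21.0 and 21.4 TPM. At 0 h the libraries of both arms had held 34.3 to 40.2 TPM, so the untreated cells had lost COL4A1 and the treated ones gained it. TGFβ-treated cells held 2.59-fold more at 8 h, 4.86-fold more at 24 h and 3.68-fold more at 48 h (log2 1.88, SE 0.04, adjusted p = 2.29e-18, limma voom).

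COL4A2, the α2 chain of the same network, was at 86.1, 81.6 and 79.6 TPM in untreated and 248, 245 and 233 TPM in TGFβ-treated cells at 48 h, after 139 to 168 TPM in both arms at 0 h. The excess was 1.46-fold at 8 h, 2.28-fold at 24 h and then 2.99-fold (log2 1.58, SE 0.08, adjusted p = 1.12e-12). COL4A1 and COL4A2 thus shared the direction but not the course. The difference of COL4A1 was the larger at 8, 24 and 48 h and peaked at 24 h, while that of COL4A2 still grew to 48 h. Nearly all of the TPM of both came from protein-coding transcripts, 99.8% and 99.0%.

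COL4A3 and COL4A4, chains of the network best known from kidney and lung alveoli, were rare transcripts that rose in both arms. COL4A4 was at 1.08, 1.04 and 0.913 TPM in untreated and 2.55, 2.64 and 2.41 TPM in TGFβ-treated cells at 48 h, and was 2.54-fold higher (log2 1.34, SE 0.08, adjusted p = 6.25e-12). At 0 h it was at 0.369, 0.358 and 0.314 TPM in untreated libraries and at 0.176, 0.258 and 0.255 TPM in the TGFβ arm, without overlap, although the 0 h difference did not pass the test. Its call at 8 h (log2 0.38, adjusted p = 0.00845) was lost without any 1 of the TGFβ-treated 8 h libraries or the untreated 8 h libraries 1 and 2 (log2 0.31 to 0.40), and its adjusted p passed 0.01 also without a library of another time (untreated 0 h library 2, 24 h library 3 and 48 h library 2, and TGFβ-treated 48 h library 1, each log2 0.38). COL4A3 was 1.39-fold higher at 48 h, from 1.03 to 1.72 TPM in untreated to 1.64 to 2.46 TPM in TGFβ-treated libraries, which overlap (adjusted p = 0.000258).

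COL4A5 and COL4A6, chains of the basement membranes of skin and smooth muscle, rose in untreated cells and rose less or not at all with TGFβ. COL4A5 went from 17.6, 19.1 and 20.6 TPM at 0 h to 62.9, 60.8 and 56.4 TPM at 48 h in untreated cells, and from 14.3, 19.8 and 16.9 TPM to 42.6, 39.5 and 39.6 TPM in the TGFβ arm. COL4A6 was at 27.6, 26.3 and 25.4 TPM in untreated and 17.6, 17.9 and 17.4 TPM in TGFβ-treated cells at 48 h. Neither gene overlapped between the arms at 48 h, and the differences were 1.36-fold lower for COL4A5 (log2 -0.44, SE 0.04, adjusted p = 3.65e-08) and 1.46-fold lower for COL4A6 (log2 -0.55, SE 0.04, adjusted p = 6.58e-10). Scaled to the reference genes they were log2 -0.09 and -0.20 at 48 h (adjusted p = 0.41 and 0.0267), both without a call, and at 24 h they turned positive. At 8 h COL4A5 missed the call (log2 -0.13, adjusted p = 0.0568, limma voom). It was called lower there with library totals, length-scaled counts and log2(TPM + 1) (log2 -0.21, -0.31 and -0.34), but stood at log2 -0.07 when scaled to the reference genes.

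COL7A1, the only gene of the anchoring fibrils that bind squamous epithelium to its bed, was at 49.3, 41.0 and 38.5 TPM in untreated and 211, 214 and 199 TPM in TGFβ-treated cells at 48 h. Both arms had 66.5 to 88.7 TPM at 0 h. The excess with TGFβ went from 1.93-fold at 8 h over 3.49-fold at 24 h to 4.85-fold at 48 h (log2 2.28, SE 0.12, adjusted p = 1.07e-12). COL15A1 was called higher at 8 h (log2 0.78, adjusted p = 0.00691) and 24 h (log2 0.93, adjusted p = 0.00296) and stood at log2 -0.37 at 48 h (adjusted p = 0.119), at levels of at most 1.01 TPM that overlapped between the arms at each of these times. The mean TPM of COL15A1 at 24 h was 0.471 in untreated and 0.466 in TGFβ-treated cells, so that its counts and TPM disagreed there. Its call at 8 h was lost with library totals (log2 0.69, adjusted p = 0.0123). COL18A1, the source of endostatin, was at 21.2, 17.7 and 19.98 TPM in untreated and 14.1, 18.3 and 16.5 TPM in TGFβ-treated cells at 48 h, with overlap and an adjusted p of 0.134, which was 0.00197 without the 4 low libraries numbered 2. Those libraries were picked by their collagen sums, so that the smaller value lends no support.

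Network-forming collagens were dominated by type VI. COL6A1 was at 654, 604 and 582 TPM in untreated and 460.4, 452 and 419 TPM in TGFβ-treated cells at 48 h, and was 1.37-fold lower (log2 -0.45, SE 0.12, adjusted p = 0.00508). COL6A2 was at 618, 576 and 557 TPM in untreated and 718, 699 and 644 TPM in TGFβ-treated cells at 48 h. The arms did not overlap for either chain, yet COL6A2 had an adjusted p of 0.113 (log2 0.26, SE 0.13) in the fit that shares 1 spread over all libraries. Without the 4 low libraries numbered 2 this was 3.96e-05, at log2 0.26. None of them is a 48 h library and they were picked by their collagen sums, so that the smaller value lends no support. The COL6A1 call was lost without any 1 of the TGFβ-treated 48 h libraries or the untreated 48 h libraries 1 or 2 (log2 -0.40 to -0.48, adjusted p = 0.0104 to 0.0268), and when scaled to the reference genes (log2 -0.10). COL6A3, the third chain that type VI microfibrils are built with, did not exceed 0.683 TPM in any library, while it was 2.30-fold higher with TGFβ at 48 h (adjusted p = 0.000511). COL6A5 and COL6A6 did not exceed 0.0970 TPM.

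COL8A1, which forms the hexagonal network under endothelium, fell over time in both arms, from 14.6 to 19.0 TPM at 0 h to 6.49, 7.04 and 6.70 TPM in untreated and 5.48, 4.93 and 6.17 TPM in TGFβ-treated cells at 48 h. It was called lower at 24 h (log2 -0.34, adjusted p = 0.000168), which turned to 0.10 when scaled to the reference genes, and at 8 h (log2 -0.21, adjusted p = 0.0085), a call lost under that scaling (log2 -0.16) and without any 1 of 12 libraries, of which the TGFβ-treated 8 h library 3 moved it most, to log2 -0.15. COL8A2, its partner, was at 0.641, 0.666 and 0.653 TPM in untreated and 2.84, 2.59 and 2.54 TPM in TGFβ-treated cells at 48 h. It was 4.09-fold higher (log2 2.03, SE 0.09, adjusted p = 5.43e-14). COL10A1 had at most 6 estimated counts in any library.

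No transmembrane collagen was called between the arms at 8, 24 or 48 h by limma voom, and COL13A1 at 8 h came nearest (log2 -0.36, adjusted p = 0.0192). Scaled to the reference genes COL13A1 was called higher at 24 h (log2 0.41, adjusted p = 0.0086). COL13A1, found at adhesion sites, fell in both arms, from 6.43 to 7.32 TPM at 0 h to 1.84, 1.94 and 2.11 TPM in untreated and 1.94, 1.45 and 2.04 TPM in TGFβ-treated cells at 48 h. COL17A1, the hemidesmosome collagen of basal keratinocytes, did not exceed 0.491 TPM, COL23A1 0.190 TPM and COL25A1 0.433 TPM, and of these COL25A1 was tested.

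Among the others, COL16A1, a FACIT, was the most abundant with TGFβ, with 23.4, 21.6 and 20.8 TPM in untreated and 46.9, 45.6 and 47.0 TPM in treated libraries at 48 h, which was 2.41-fold higher (log2 1.27, SE 0.09, adjusted p = 4.14e-10). COL12A1, a FACIT that coats type I fibrils, was at 24.7, 21.5 and 21.5 TPM in untreated and 30.1, 29.0 and 29.2 TPM in TGFβ-treated cells, 1.38-fold higher (adjusted p = 2.5e-06). COL22A1, a FACIT of tissue junctions, was at 9.21, 11.25 and 8.16 TPM and 18.1, 17.0 and 17.7 TPM, 1.96-fold higher (adjusted p = 8.84e-13). The arms did not overlap at 48 h for any of these FACIT genes.

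COL21A1, another FACIT, was the gene of at least 1 TPM with the largest negative difference at 48 h. Untreated cells raised it from 1.11, 1.499 and 0.699 TPM at 0 h to 6.36, 5.20 and 5.996 TPM at 48 h, and the TGFβ arm moved from 1.31, 0.899 and 0.774 TPM to 1.71, 3.36 and 1.304 TPM. All untreated libraries lay above all treated ones at 24 and 48 h. It was 2.66-fold lower at 24 h and 3.29-fold lower at 48 h (log2 -1.72, SE 0.11, adjusted p = 4.88e-11). COL28A1 was 2.71-fold lower at 48 h (log2 -1.44, adjusted p = 2.18e-05) at levels of at most 0.854 TPM, and its call at 24 h was lost when scaled to the reference genes (log2 -0.46, adjusted p = 0.101).

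The type IX chains, which decorate cartilage fibrils, differed among themselves. COL9A2 was at 9.002, 8.03 and 8.41 TPM in untreated and 16.5, 15.1 and 15.4 TPM in TGFβ-treated cells at 48 h and was 1.84-fold higher (log2 0.88, SE 0.11, adjusted p = 1.54e-06). Its call at 8 h (log2 0.61, adjusted p = 0.00889) was lost without any 1 of 16 libraries, at log2 0.54 to 0.67, and its difference at 24 h (log2 0.36, adjusted p = 0.0469) passed the threshold without the TGFβ-treated 24 h library 2 (log2 0.52, adjusted p = 0.00243). COL9A1 counts at 48 h summed to 11 in untreated and 107 in TGFβ-treated libraries, a ratio of 11 (95% exact interval 5.91 to 22.7, counting error only). COL9A3 was at 15.9, 16.3 and 14.1 TPM and 14.3, 14.8 and 13.3 TPM at 48 h, was called lower only at 24 h (log2 -0.48, adjusted p = 0.00338, lost without the untreated 24 h library 1 or 3 at log2 -0.44 and -0.46, or the TGFβ-treated 24 h library 2 at log2 -0.39, and at log2 -0.03 when scaled to the reference genes, adjusted p = 0.754), and drew 0.0851% of its TPM from its protein-coding transcript.

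COL20A1, a FACIT, had 3 estimated counts over the 3 untreated libraries at 48 h and 66 over the TGFβ-treated ones. The ratio per library total was 24.9 (95% exact interval 8.16 to 124, counting error only), and no fold is given beyond it. COL14A1, a FACIT of dense connective tissue, rose in both arms from 0.108 to 0.152 TPM at 0 h to 1.09 to 1.82 TPM at 48 h, and its difference at 48 h missed the threshold (log2 0.40, adjusted p = 0.0138). COL19A1 and COL26A1 stayed at or below 0.626 TPM and were not called.

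The collagen genes also differed between 48 and 0 h within each arm, where time, file name code and time in growth factor-depleted medium cannot be told apart. In untreated cells 20 of the 38 tested genes were higher and 6 lower at 48 h than at 0 h, where 28% of all genes were higher and 27.1% lower. In the TGFβ arm 25 were higher and 2 lower, against 29.8% and 28.1%. Of those higher, COL1A2, COL9A1 and COL20A1 passed the count minimum through TGFβ-treated libraries only. COL2A1, higher in untreated cells, passed it mostly through untreated libraries, so that these genes lend the counts no support. The 6 that fell in untreated cells were COL1A1, COL4A1, COL4A2, COL7A1, COL8A1 and COL13A1. COL8A1 and COL13A1 fell in the TGFβ arm as well, while COL1A1, COL4A1, COL4A2 and COL7A1 rose there. COL4A2 for example fell by 1.04 on the log2 scale in untreated cells (adjusted p = 5.92e-10) and rose by 0.58 with TGFβ (adjusted p = 1.93e-06). COL7A1 fell by 1.03 and rose by 1.32. The largest rise in untreated cells was that of COL14A1 (log2 3.78, adjusted p = 2.76e-10), and it was log2 3.90 in the TGFβ arm. These time comparisons share libraries with the comparisons of the arms and are not independent of them.

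**Figure D4:**
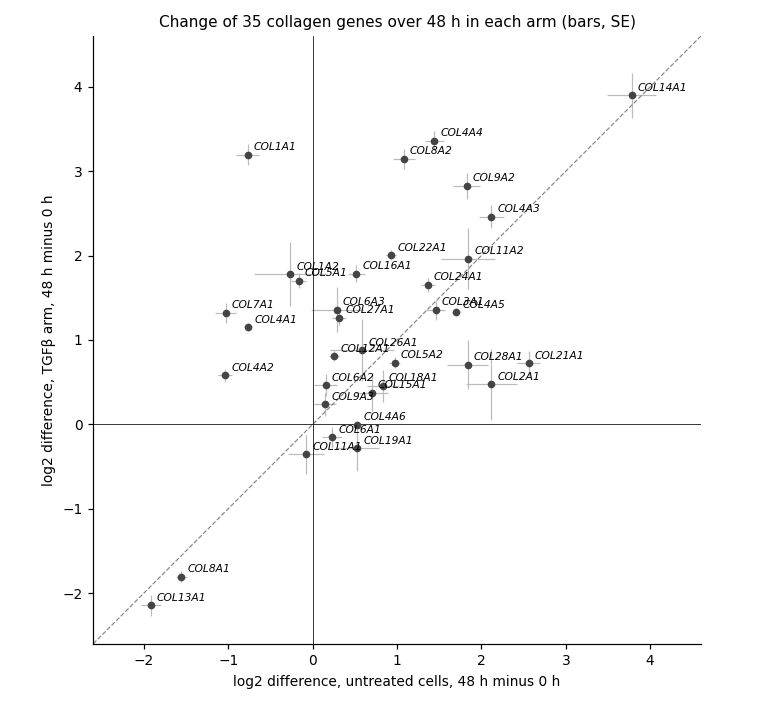
Log2 difference between 48 h and 0 h in untreated cells (x axis) and in the TGFβ arm (y axis) for 35 tested collagen genes, with bars for the SE and a dashed line where both arms changed equally. COL9A1, COL20A1 and COL25A1 were left out for their few counts. COL1A1 lies at -0.77 and 3.19, and COL8A1 and COL13A1 lie below 0 on both axes.

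The first 8 h could be compared within the same file name codes, as the change from 0 h in the TGFβ arm minus that in untreated cells. By this measure 8 of 38 collagen genes had risen and 0 had fallen, against 5.05% and 2.84% of all genes. They were COL1A1, COL4A1, COL4A2, COL4A4, COL5A1, COL7A1, COL22A1 and COL27A1, with log2 values from 0.58 (COL4A2) to 1.72 (COL1A1). COL4A1 had the smallest SE among them, at log2 1.41 with an SE of 0.06 (adjusted p = 6.75e-13). The value of COL4A4 (log2 0.95) came in large part from 0 h, where the TGFβ arm was lower by log2 -0.58. At 8 h its difference between the arms was log2 0.38. COL24A1 and COL8A1 came nearest to a fall (log2 -0.39 and -0.26, adjusted p = 0.0318 and 0.0392), and DESeq2 called 8 genes higher and 1 lower. The count was 10 without the 4 low libraries numbered 2, which lends no support, since those libraries were picked by their collagen sums.

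From 8 to 48 h the difference between the arms changed for 18 collagen genes, upwards for 13 and downwards for 5, against 6.69% and 7.34% of all genes. Scaled to the reference genes the split was 15 and 1, with no share of all genes computed under that scaling. COL9A1, among the genes changed upwards, passed the count minimum through TGFβ-treated libraries only and lends the count no support. COL1A1 had the largest upward change among genes of at least 1 TPM (log2 2.25, SE 0.18, adjusted p = 7.13e-09), followed by COL8A2 (1.34) and COL7A1 (1.33). Among the called genes COL21A1 had the largest downward change (-1.43, SE 0.18, adjusted p = 4.62e-06). COL27A1 was not called in this comparison (log2 0.13, SE 0.11, adjusted p = 0.48).

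Chain partners did not move in fixed proportion. The ratio of COL6A2 to COL6A1 TPM stayed between 0.945 and 0.999 in all 12 untreated libraries, and in the TGFβ arm it started at 1.002 ± 0.029 and went through 1.05 ± 0.018 after 8 h and 1.21 ± 0.017 after 24 h to 1.55 ± 0.010 (mean ± SD, n = 3). The ratio of COL5A1 to COL5A2 fell from 19.9 ± 3.43 to 9.88 ± 0.52 in untreated cells over 48 h and rose from 18.0 ± 3.17 to 38.1 ± 0.83 with TGFβ. The ratio of COL4A2 to COL4A1 was 4.03 ± 0.17 in untreated and 4.10 ± 0.30 in the TGFβ arm at 0 h, and 3.36 ± 0.08 and 2.73 ± 0.05 at 48 h. The ratio of COL4A5 to COL4A6 was 2.27 ± 0.05 and 2.30 ± 0.11 at 48 h, with overlapping libraries, after 1.12 ± 0.08 and 1.023 ± 0.097 at 0 h. For COL6A2 to COL6A1, COL5A1 to COL5A2 and COL4A2 to COL4A1 the arms did not overlap at 48 h, where the smallest exact permutation p for 3 against 3 libraries is 0.1.

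**Figure D5:**
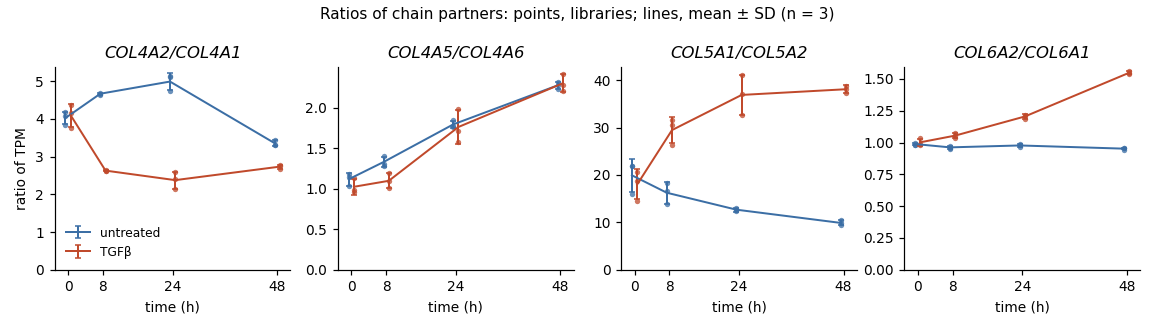
Ratio of the TPM of chain partners (y axes, linear from 0) against time in hours, with 1 point per library and lines through the mean ± SD of 3 libraries, untreated cells in blue and the TGFβ arm in red. COL6A2 to COL6A1 leaves 1 in the TGFβ arm and reaches 1.55 at 48 h, while COL4A5 to COL4A6 overlaps between the arms at 24 and 48 h.

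The transcripts behind a gene total shifted for a few members. Of COL4A5, transcript COL4A5-202 carried 28.6, 29.9 and 28.1% of the TPM in untreated and 51.8, 53.3 and 43.0% in TGFβ-treated cells at 48 h, and COL4A5-201 carried 41.9 ± 2.09% and 27.5 ± 6.06% (SD, n = 3). Neither share overlapped between the arms. Of COL16A1, the protein-coding COL16A1-203 carried 19.3% in untreated and 30.6% in TGFβ-treated cells at 48 h on average, and the retained-intron transcript COL16A1-214 carried 25.8% and 13.3%. For COL1A1 the protein-coding COL1A1-201 held 73.9% and 75.9%. Protein-coding transcripts gave 53.3% of COL7A1, 39.8% of COL27A1 and 34.9% of COL16A1 TPM over all libraries, so the totals of these genes include much RNA that the annotation does not translate. When protein-coding transcripts alone were summed, the directions of the called differences of these genes did not change.

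Genes that modify, process and crosslink collagen were followed as a list of 31, all of which were tested. TGFβ-treated cells had 8 of them higher and 4 lower at 8 h, 11 and 3 at 24 h, and 14 and 3 at 48 h, where 9.12% and 7.26%, 15.4% and 13.8%, and 16.1% and 16.4% of all genes were higher and lower, with a median log2 difference of 0.23 at 48 h against -0.01 over all genes. P4HA3, a catalytic subunit of prolyl 4-hydroxylase, had the largest difference upwards at 48 h (log2 2.54, SE 0.10, adjusted p = 1.22e-14), followed by LOX, which crosslinks collagen (log2 1.53, SE 0.06, adjusted p = 2.44e-14). TLL1, a procollagen proteinase, had the largest downwards (log2 -2.32, SE 0.11, adjusted p = 2.47e-13), followed by COLGALT2, a collagen galactosyltransferase (log2 -0.82, SE 0.06, adjusted p = 2.5e-10).

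Of 8 collagen receptors, 3 were higher and 1 lower at 8 h, 6 and 1 at 24 h, and 5 and 1 at 48 h, against the same shares of all genes, to which 1 of 8 lower is close. ITGA11, the integrin chain that binds fibrillar collagen, went from 60.2 TPM in untreated to 348 TPM in TGFβ-treated cells at 48 h (log2 2.62, SE 0.06, adjusted p = 2.3e-18). MRC2, an endocytic collagen receptor, was higher by log2 1.10, ITGA2 by 0.89, ITGB1 by 0.86 and ITGA1 by 0.44, all called at 48 h. ITGA10 was lower (log2 -0.84, adjusted p = 1.25e-10). DDR1 (log2 0.10, adjusted p = 0.582) and DDR2 (log2 0.39, adjusted p = 0.0529) were not called at 48 h.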

How the data were processed

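Total RNA of 24 SK-MES1 libraries (8 groups of 3) was sequenced on an Illumina HiSeq. Per the submitters' processing notes and the study's methods, the authors quantified reads with kallisto 0.43.0 against GRCh38 transcripts (Ensembl release 79) and deposited estimated counts and TPM (a read share per effective transcript length) for each transcript with its length and effective length. Estimated counts depend on how reads shared by overlapping transcripts were split, and TPM depends on the effective lengths that the authors computed.

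Here the deposited transcripts were assigned to genes by Ensembl identifier with GENCODE release 44 (155518 of 173259 matched, 89.8%), and estimated counts, rounded to whole numbers, and TPM were summed per gene. Genes with at least 10 counts in at least 3 libraries were tested with limma 3.58.1 (voom, TMM factors from edgeR 4.0.16, R 4.3.3) in 1 fit over all 8 groups, and p-values were adjusted by the Benjamini-Hochberg method over all 17453 genes of a comparison, with calls at an adjusted p below 0.01. The procedure was tested on simulated data. A fold is the fitted difference, and levels are TPM.

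Values in every library were given for members with a group mean of at least 10 TPM, and for members called with at least a 2-fold difference and a group mean of at least 1 TPM, others by a range, a sum of counts or a group mean, and values outside this rule were chosen after they were seen. Of the collagen modification list the 2 largest called differences in each direction at 48 h were named. The members and lists were chosen with earlier results of these data known. Libraries held 46613589 to 77964234 estimated counts, replicates differed by more than sampling noise (chi-square per gene 3.12 to 57.1), and intervals of count ratios cover counting error only. Sequences came from RefSeq (GRCh38.p14), of which 32 of 44 members matched. Alternatives were edgeR's quasi-likelihood test, DESeq2 1.42.0, other scalings, filters and pseudocounts, length-scaled counts, protein-coding transcripts alone, the compared groups alone, a replicate block, and leaving out each library. Leaving out 4 libraries numbered 2 was added after seeing the data. Another gene of the label check is not reported here.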

Additional observations from a re-analysis of the deposited data

Results flagged for a closer look

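The following collagen genes had a difference between TGFβ-treated and untreated cells that itself changed from 8 to 48 h, by the limma voom test of that change over all genes. Among fibrillar collagens the log2 difference changed by 2.25 for COL1A1, 1.01 for COL5A1, 0.68 for COL24A1 and -0.35 for COL5A2. Among basement membrane collagens it changed by 0.51 for COL4A1, 1.03 for COL4A2, 0.67 for COL4A3, 0.97 for COL4A4, 1.33 for COL7A1, -0.31 for COL4A5, -0.54 for COL4A6 and -1.15 for COL15A1. Among the remaining classes it changed by 1.34 for COL8A2, 3.39 for COL9A1, 0.57 for COL12A1, 0.82 for COL16A1, 0.46 for COL22A1 and -1.43 for COL21A1. Scaled to the 4 reference genes, COL4A5 (-0.02), COL4A6 (-0.24), COL5A2 (-0.06) and COL15A1 (-0.85) lost this call. The 8 and 48 h libraries carried different file name codes, and code and time cannot be told apart here. COL9A1 had 5 counts in each arm at 8 h, so that its value rests on few reads.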

How the results depend on the processing

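Under log2(TPM + 1) and log2(TPM + 0.1) in place of counts, 9 collagen genes were called at 8 h under either scale against 14, and for the change from 0 h at 8 h 5 were called under log2(TPM + 1) against 8. Scaled to the 4 reference genes, differences at 24 h reversed for COL6A1 (0.23), COL8A1 (0.10), COL4A5 (0.072) and COL4A6 (0.21), COL18A1, not called, turned from -0.09 to 0.35, and among the other called differences COL24A1 turned to 0.09 at 24 h and COL5A2 to 0.08 at 48 h, since that scaling moved the median of all genes to 0.43 at 24 h and 0.34 at 48 h. Leaving out each library in turn gave 9 to 14 calls at 8 h, 20 to 24 at 24 h, 24 to 26 at 48 h, 26 to 28 in the F-test, 24 to 26 for untreated and 26 to 28 for TGFβ-treated cells over time, 8 to 8 for the change from 0 h and 15 to 19 for the change from 8 to 48 h, with 0 to 0 at 0 h. The split of calls from 8 to 48 h was 12 up and 1 down with either TPM scale and 11 and 1 with length-scaled counts, and at 24 h it was 14 and 3 with the compared groups alone. edgeR and DESeq2 called 12 and 14 genes at 8 h, 23 and 22 at 24 h, and 25 and 25 at 48 h. Numbers were shared between the arms, and with a replicate block 14, 25 and 25 genes were called at 8, 24 and 48 h and 28 in the F-test. Same-numbered libraries correlated at -0.047 to 0.301, over 0.1 in 4 of 12 pairs, and 13 of 24 correlated best with their own number, so that the pairing was not used. Of 60 named differences 44 were called, and 11 of these lost the call under at least 1 alternative. The causes were not tested. No share of all genes was computed under these alternatives, so that the counts of calls given here have no background beside them. Few counts limit COL1A2, COL2A1, COL9A1, COL20A1 and COL25A1.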
